A study of Mus musculus with 6 samples.

Results

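The LIN28 and IGF2BP proteins are RNA-binding proteins of embryonic and fetal tissue, and 5 of their genes, Igf2bp3, Igf2bp2, Igf2bp1, Lin28a and Lin28b, were followed here in T cells that had or lacked the signalling adaptor SAP. The genes were chosen by name with earlier results of these arrays in view. All probe sets that the platform annotation assigns to a single gene of the 5 were taken. These were 13 of the 45037 probe sets on the array: 6 for Igf2bp3, 4 for Igf2bp1, 2 for Lin28a, 1 for Lin28b and 0 for Igf2bp2, which is not analysed here. The 4 genes with a probe set stand among 18193 genes measured in this way. Because the values themselves entered the choice, the genotype differences of these genes are given as a description, without a test.

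Expression was profiled on 6 mouse whole-genome arrays, 3 with RNA of SAP-deficient cells and 3 with RNA of wild-type (WT) cells. Both groups were primary CD4 T cells from spleen and lymph nodes of mice with the OT-II transgene, a T cell receptor specific for an ovalbumin peptide. SAP, the product of Sh2d1a, is a small adaptor that couples receptors of the SLAM family to kinases in T and NK cells. Sorted naive cells of both groups were stimulated for 3.5 days with the peptide on splenocytes that had been freed of T cells and stopped from dividing with mitomycin C. Both groups were grown with IL-6 (100 ng/ml) and IL-21 (50 ng/ml). Blocking antibodies were added against TGF-β at 20 µg/ml, against IL-4 at 10 µg/ml, and against IL-12 and IFN-γ, conditions meant to yield cells like follicular helper T (Tfh) cells. The labels give neither the age or sex of the mice nor the allele that removes SAP, and do not say whether arrays of a genotype came from separate animals, so the spread between them may be partly technical. Any RNA left from the presenting splenocytes is part of each sample, and in such bulk samples fewer cells of a type and less RNA per cell cannot be told apart.

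IGF2BP proteins carry RRM and KH domains, with which they bind messenger RNAs such as those of Igf2, Myc and Actb and affect their stability, transport and translation. They are also known as readers of the m6A mark on messenger RNA. LIN28 proteins carry a cold-shock domain and CCHC zinc knuckles and bind the hairpin precursor of let-7 microRNAs, which keeps let-7 from maturing. The terminal uridyltransferases TUT4 and TUT7 then tail the precursor, and the exonuclease DIS3L2 degrades it. Mature let-7 in turn represses Lin28a, Lin28b, the Igf2bp genes, Hmga2 and Myc, so both families belong to a single circuit. In mouse blood development, Lin28b and Igf2bp3 are known for the fetal type of lymphocyte production, and most adult tissues express little of either.

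The let-7 sequences are shown because their seed is what mature let-7 pairs with targets by, and the precursor motif is what LIN28 holds. RefSeq (GRCm38.p6) lists 9 mature 5p names of the let-7 and miR-98 family in mouse, and all 9 share the seed GAGGUAG at bases 2 to 8, capitalised in 4 of them:
mmu-let-7a-5p: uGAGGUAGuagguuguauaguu
mmu-let-7d-5p: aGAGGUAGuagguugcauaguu
mmu-let-7g-5p: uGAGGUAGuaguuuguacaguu
mmu-miR-98-5p: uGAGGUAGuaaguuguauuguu
The zinc knuckles of LIN28 recognise GGAG in the precursor's loop. Searched on the strand of the hairpin, GGAG stood between the mature arms in 9 of the 12 family hairpins (75%) and in 52 of the 644 mouse hairpins with both arms listed (8.07%). Hairpins with the motif (capitals) and without it are shown by Mirlet7g (chr9:106178840-106178927, plus strand) and Mirlet7b (chr15:85707319-85707403, plus strand):
Mirlet7g: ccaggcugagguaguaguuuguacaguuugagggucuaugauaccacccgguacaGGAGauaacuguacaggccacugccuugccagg
Mirlet7b: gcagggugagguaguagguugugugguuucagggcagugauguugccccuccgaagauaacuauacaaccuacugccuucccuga
In Mirlet7g, GGAG begins at base 56 of the hairpin, and 3 bases lie between its end and the 3p arm. Mature microRNAs are not part of the values used here, so the arrays give the messenger RNA side of the circuit only.

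The labels were checked on the targeted gene. Sh2d1a averaged 4.83 ± 0.69 in SAP-deficient cells and 9.14 ± 0.53 in WT cells (log2 level, SD, n = 3 arrays each), and every SAP-deficient array lay under every WT array. Each SAP-deficient array resembled a particular WT array more than any other. The correlation of levels across probe sets was 0.996 to 0.998 within these 3 pairs, while arrays that shared a genotype correlated at 0.989 to 0.994. The pairs are numbered here 1 to 3, as are the arrays in them. The labels do not state such a pairing, but 2 sex-linked genes followed it. Xist, the RNA of the silenced X chromosome, was at 12.50 in both arrays of pair 1. It was at 8.19 and 8.21 in pair 2, and at 6.26 and 5.81 in pair 3 (SAP-deficient and WT). Eif2s3y, a gene of the Y chromosome, was at 2.91 and 3.54 in pair 1, 9.98 and 9.96 in pair 2, and 9.76 and 9.80 in pair 3. Pairs 2 and 3 thus held male RNA and pair 1 little or none, so arrays of a genotype did not all come from the same animals. A difference between genotypes is therefore also given within each pair. All 10 measured markers of T cells lay above the 75th percentile of probe sets (8.03), from 9.63 for Cd4 to 12.93 for Cd3d.

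Igf2bp3 had a higher mean level in SAP-deficient cells by each of its probe sets, by 0.055 to 0.55 log2 units. By the brightest of its 6 probe sets, 1422610_s_at, it was at 8.84, 8.63 and 8.47 in SAP-deficient arrays 1 to 3, against 8.11, 8.28 and 7.88 in WT arrays 1 to 3 (log2 level). The groups did not overlap: the lowest SAP-deficient array, number 3, lay 0.19 above the highest WT array, number 2. The means were 8.65 ± 0.18 in SAP-deficient cells and 8.09 ± 0.20 in WT cells (SD, n = 3 arrays each), a difference of 0.55 ± 0.16 log2 units (SE of the limma fit) or 1.47-fold. The difference was larger than the SD within either genotype. Within pairs 1, 2 and 3 it was 0.72, 0.35 and 0.59, and with the pairs as a block its SE was 0.09. Only 9 of the 18193 genes, each by its brightest probe set, had a higher difference, and the median gene was at 0.01. Because Igf2bp3 was chosen with these values in view, neither its rank nor the size of its difference is a separate result.

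The probe sets of Igf2bp3 did not all give the same answer. In 4 of the 6, every SAP-deficient array lay above every WT array, an order that 2.56% of all probe sets showed. Probe set 1422611_s_at, designed like 1422610_s_at on the reference messenger RNA, was at 7.65, 7.52 and 7.44 in SAP-deficient arrays and at 7.14, 7.24 and 6.86 in WT arrays, a difference of 0.46 ± 0.15. These probe sets followed each other closely, with a root mean square difference of 0.07 log2 units between their mean-centred values over the 6 arrays.

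Probe set 1453957_a_at, designed on a separate complementary DNA, was at 7.27, 7.05 and 7.50 in SAP-deficient arrays and at 6.67, 6.68 and 6.92 in WT arrays. Its difference of 0.52 ± 0.16 was of the same size, although here pair 3 held the brightest array of each genotype and for 1422610_s_at the dimmest. Probe set 1433732_x_at was at 7.97, 8.09 and 7.87 in SAP-deficient arrays and at 7.64, 7.82 and 7.24 in WT arrays. The groups were apart by only 0.05, between SAP-deficient array 3 and WT array 2, and the difference was 0.41 ± 0.17.

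The other 2 probe sets of Igf2bp3 had overlapping groups. Probe set 1433731_at, which shares its target sequence with 1433732_x_at, was at 7.47, 8.03 and 7.50 in SAP-deficient arrays, against 7.63, 7.75 and 7.47 in WT arrays. Its difference was 0.055 ± 0.180, and SAP-deficient array 1, the highest by 1422610_s_at, was here the lowest of its group. Probe set 1450687_at, the dimmest, was at 5.66, 5.55 and 5.11 in SAP-deficient arrays, against 5.14, 5.64 and 4.45 in WT arrays. It too was designed on the reference messenger RNA, but its root mean square difference from 1422610_s_at was 0.26. The genotype difference of 1450687_at, 0.36 ± 0.29, came from pairs 1 and 3 (0.51 and 0.66), while pair 2 was at -0.08. Neither of these carries a suffix in its name; on this platform _s_at and _x_at mark probe sets with probes that can also match other transcripts, and _a_at those that match several transcripts of the same gene. Without _s_at and _x_at probe sets the gene is therefore represented by 1433731_at and its difference is 0.055 in place of 0.55.

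**Figure D1:**
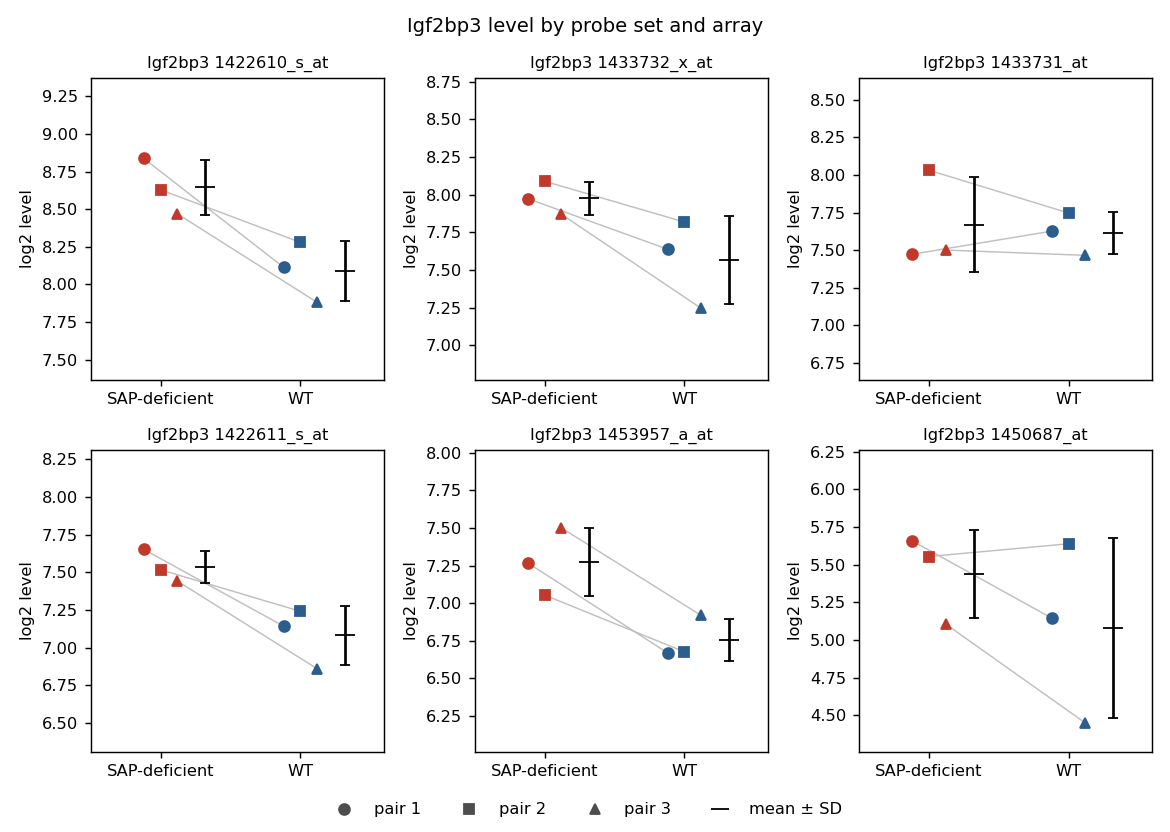
Log2 level of the 6 Igf2bp3 probe sets (a panel each, vertical axes all spanning the same number of log2 units) in SAP-deficient arrays (red, left) and WT arrays (blue, right). Symbols mark the pair, grey lines join the arrays of a pair, and black bars give the mean ± SD of 3 arrays; the groups are apart in 4 panels and overlap for 1433731_at and 1450687_at.

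Taken over all 6 probe sets, Igf2bp3 averaged 7.48, 7.48 and 7.31 in SAP-deficient arrays, against 7.06, 7.23 and 6.80 in WT arrays. SAP-deficient array 3 still lay 0.08 above WT array 2. The mean difference was 0.39 ± 0.13, and 0.42, 0.25 and 0.51 within pairs 1, 2 and 3. Of the 18 differences that 6 probe sets in 3 pairs give, 16 were above 0, with 1433731_at in pair 1 and 1450687_at in pair 2 as the exceptions. These probe sets read the same RNA samples and are not replicates of the genotype. Among the 393 genes with 6 or more single-gene probe sets, Igf2bp3 was the only gene (0.254%) with at least 4 of them arranged with all SAP-deficient arrays on top, a count that repeats the contrast it was picked from. Genotype took 75.6% of the sum of squares over the 6 arrays for 1422610_s_at and pairs took 18.5%. For the median probe set these shares were 6.88% and 62.4%, and for 1433731_at they were 1.90% and 78.2%. Genotype took 56.3% for 1433732_x_at, 75.5% for 1422611_s_at and 74.3% for 1453957_a_at. For 1450687_at genotype took 18.1% and pairs 67.6%. Igf2bp3 was picked from the same contrast, so its genotype shares are no separate result.

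Igf2bp1, the relative of Igf2bp3 first described in chicken as a binder of the Actb zipcode, differed in a direction that depended on the probe set. Its brightest probe set, 1459825_x_at, was at 5.14, 5.24 and 5.66 in SAP-deficient arrays, against 5.52, 5.52 and 5.94 in WT arrays, and 46.1% of all probe sets were dimmer. The groups overlapped, since SAP-deficient array 3 lay above WT arrays 1 and 2, but within each pair the SAP-deficient array was lower, by -0.38, -0.29 and -0.28. The difference was -0.32 ± 0.18, with 63.5% of the sum of squares between pairs and 35.7% between genotypes. The remaining 3 probe sets of Igf2bp1 had smaller differences. Probe set 1418761_at was at -0.11 ± 0.10, 1449210_at at 0.05 ± 0.13 and 1455223_at at 0.02 ± 0.12, all with overlapping groups and with levels from 3.65 to 4.74. Over all 4 probe sets the difference was -0.09 ± 0.11. Lower values in all 3 pairs occurred in 13.1% of all probe sets.

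Lin28a, the LIN28 protein of embryonic stem cells, was among the dim probe sets in both genotypes. Probe set 1421749_at was at 3.78, 3.77 and 4.04 in SAP-deficient arrays, against 3.97, 3.87 and 4.23 in WT arrays, with 19.6% of all probe sets dimmer. SAP-deficient array 3 lay above WT arrays 1 and 2, so the groups overlapped, and the difference was -0.16 ± 0.13. Probe set 1437752_at was at 2.70, 3.15 and 2.93 in SAP-deficient arrays, against 3.19, 3.16 and 3.25 in WT arrays. Here the groups were apart by 0.01, between SAP-deficient array 2 and WT array 2, and the difference was -0.28 ± 0.12. That order was shown by 3.13% of all probe sets. Over both probe sets the difference was -0.22 ± 0.10.

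Lin28b, the paralogue linked to fetal blood formation, was measured among the dimmest probe sets of the array. Its only probe set, 1430803_at, was at 2.05, 2.27 and 2.05 in SAP-deficient arrays, against 2.25, 2.17 and 2.19 in WT arrays, and 0.0488% of all probe sets were dimmer. The highest and the lowest array were both SAP-deficient, and the difference was -0.08 ± 0.08. Within the pairs it was -0.21, 0.10 and -0.14. At this brightness a low Lin28b level could not be told from none.

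**Figure D2:**
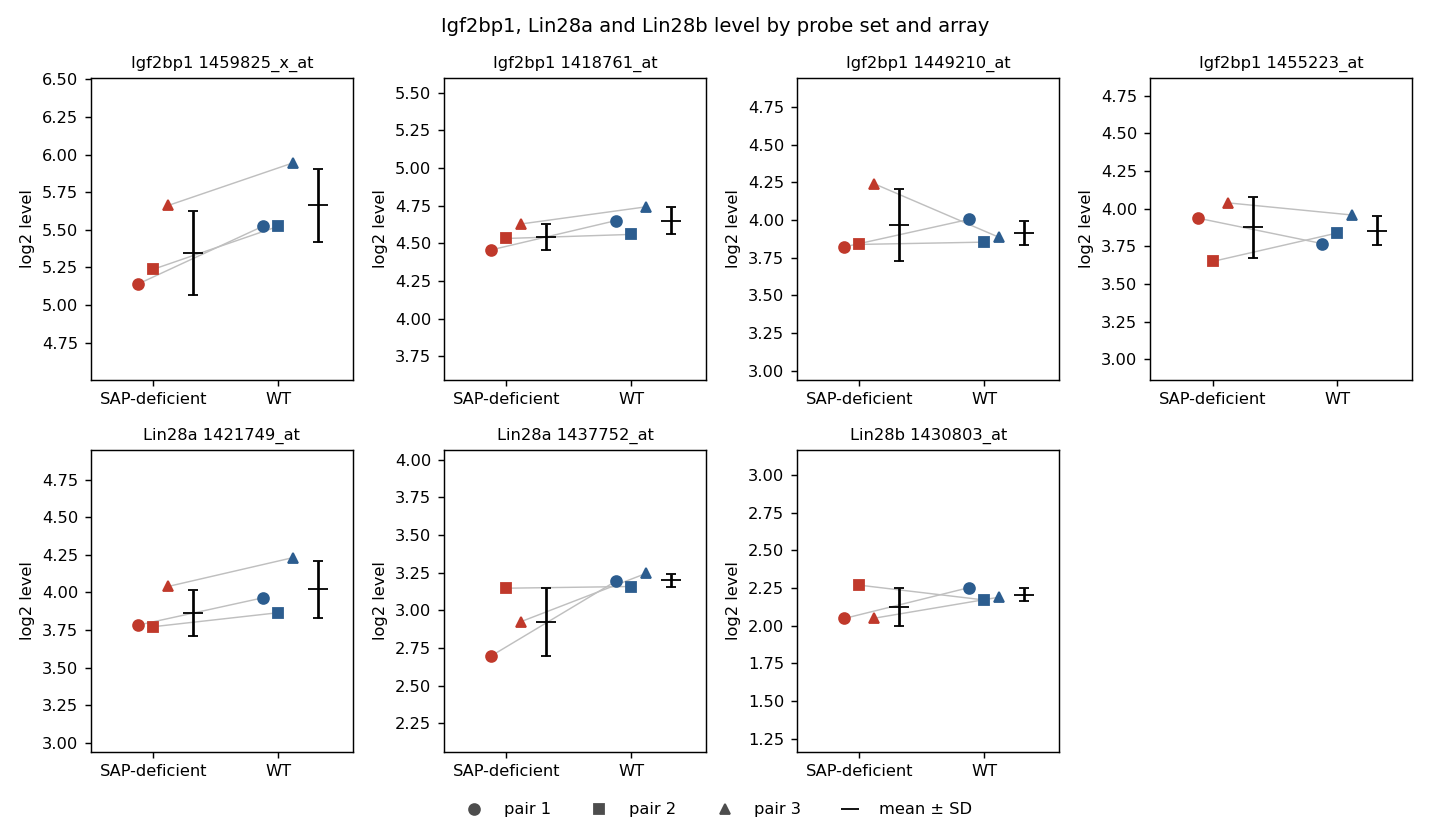
Log2 level of the 4 Igf2bp1, 2 Lin28a and 1 Lin28b probe sets in SAP-deficient arrays (red, left) and WT arrays (blue, right), with symbols for the pairs, grey lines joining the arrays of a pair and black bars for the mean ± SD of 3 arrays. The groups overlap in all panels but Lin28a 1437752_at, where they are apart by 0.01.

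Across the family, the higher level in SAP-deficient cells was seen for Igf2bp3 and for neither Igf2bp1, Lin28a nor Lin28b by the probe sets that stand for them. These 3 were at -0.32, -0.16 and -0.08, while 2 of the 4 Igf2bp1 probe sets were above 0. All 3 were dimmer, with mean levels of 5.51, 3.94 and 2.16 against 8.37 for Igf2bp3, which sets only a weak limit on a difference. With a threshold of 0.05 on the adjusted p, the limma fit called 0 of the 18193 genes (0%) and 0 of the 45037 probe sets (0%), members included; 239 genes (1.31%) had an unadjusted p under 0.05. Sh2d1a, the targeted gene, differed by -4.31 and still had an adjusted p of 0.0501 in this limma fit. A gene that the fit did not call may therefore still differ. With pairs as a block limma called 1 gene (0.0055%), Sh2d1a, and 1 probe set (0.00222%).

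**Figure D3:**
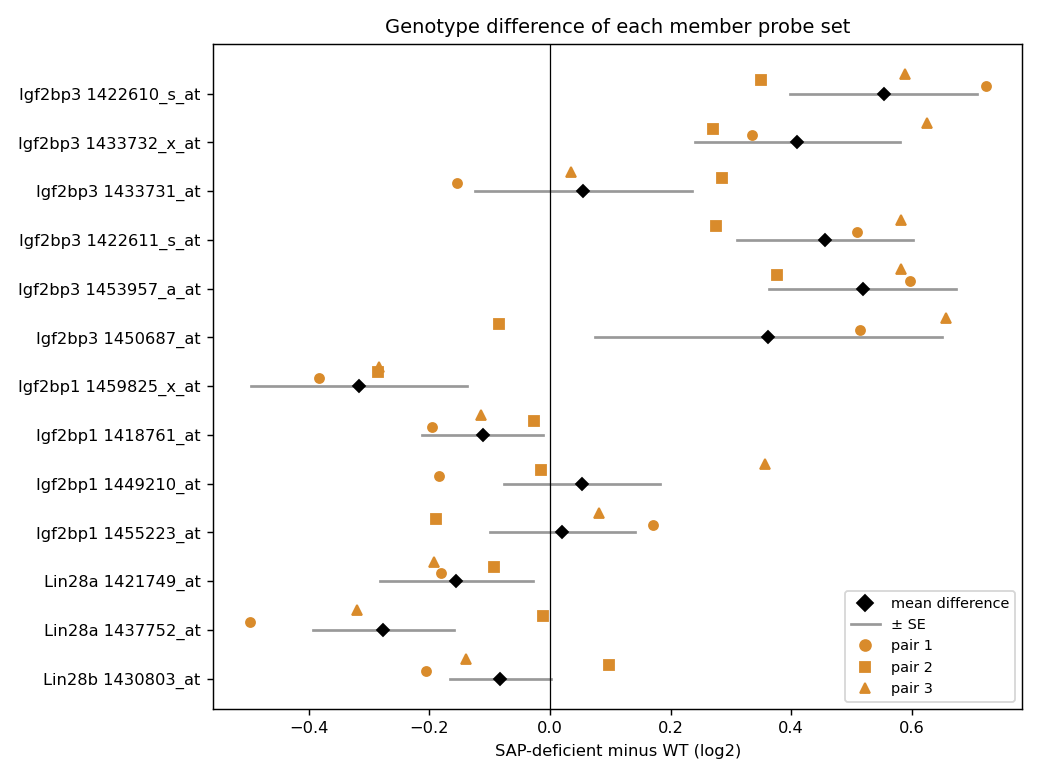
SAP-deficient minus WT difference (log2, horizontal axis) of the 13 member probe sets. Black diamonds and grey bars are the mean difference ± SE of the limma fit over 6 arrays, and orange symbols are the differences within pairs 1 to 3; the Igf2bp3 probe sets lie at 0.055 to 0.55, and those of the other genes at -0.32 to 0.05.

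Genes around the circuit lay on both sides of 0. The 4 pathway lists held 89 genes, 83 of them measured. In SAP-deficient cells 52 of these were higher and 31 lower, against 9700 higher and 8493 lower among all 18193 genes. The 83 genes had a median difference of 0.03, against 0.01 for all genes, and a largest difference of 0.55 in size. None was called by limma in either direction, with or without the pairs as a block. At an unadjusted p under 0.05, 1 was higher (Igf2r) and 1 lower (Ago4) in the genotype-only fit, and 10 (12%, against 6.10% of all genes) passed it with the block.

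In the list of let-7 maturation and silencing, 16 of 24 genes were higher, 0 passed the test in either direction and the median was 0.03. Drosha, which cuts the primary transcript, was at 9.04 ± 0.22 in SAP-deficient cells and 8.95 ± 0.43 in WT cells (log2 level, SD, n = 3 each). Dicer1, which cuts the hairpin, differed by 0.12 ± 0.10 (SE). The uridyltransferase genes Tut4 and Tut7, which act with LIN28, differed by 0.03 ± 0.21 and 0.06 ± 0.14. Neither they nor Dis3l2, the exonuclease gene (0.13 ± 0.14), differed by more than the SE of the fit. Trim71, itself a let-7 target of embryonic cells, was at 0.04 ± 0.17. Ago4, an Argonaute gene named after its value was seen, was dim and had -0.38 ± 0.12 (limma adjusted p = 1.00), with 4.05, 4.13 and 3.78 in SAP-deficient arrays and 4.35, 4.30 and 4.46 in WT arrays.

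Among 22 measured let-7 target genes, 13 were higher and 0 passed the test in either direction, with a median of 0.03. An unadjusted limma p under 0.05 was reached by 6 of them with the pairs as a block, 4 in the higher and 2 in the lower direction. In the same block fit 1110 of the 18193 genes (6.1%) reached it. The list was chosen with earlier results of these data known, so this count is no separate result. The members with the widest differences, Il13, Eomes and Irs2, were picked after their values were seen. Il13, a type 2 cytokine gene, was at 8.58, 8.16 and 9.88 in SAP-deficient arrays, against 8.25, 7.66 and 9.05 in WT arrays. Its groups overlapped, but the SAP-deficient array was the higher in each pair, by 0.34, 0.49 and 0.82, a direction shared by all pairs in 15.6% of genes. The mean difference was 0.55 ± 0.47, with a limma adjusted p of 1.00, or 0.272 with the block. Eomes, a T-box transcription factor gene, differed by 0.35 ± 0.34 and was higher in each pair (limma adjusted p = 0.692 with the block). Irs2, an insulin receptor substrate gene, differed by -0.35 ± 0.16 and was lower in each pair (limma adjusted p = 0.722 with the block). Hmga2, the chromatin protein gene most often used to read out let-7, was at 5.15, 5.13 and 5.10 in SAP-deficient arrays, against 4.83, 5.13 and 5.04 in WT arrays. Its groups overlapped through WT array 2, and the difference was 0.13 ± 0.11. Myc, a target shared with the IGF2BP proteins, was at 12.40 ± 0.18 in SAP-deficient cells and 12.31 ± 0.10 in WT cells. The cell-cycle genes Ccnd2 and Cdk6 were also bright and differed by 0.03 ± 0.07 and 0.14 ± 0.16. Arid3a, a transcription factor gene of the fetal B cell programme, differed by 0.23 ± 0.23, of which pair 3 held 0.53. Nras differed by -0.08 ± 0.11 and Zbtb16, encoding the innate lymphocyte factor PLZF, by -0.16 ± 0.14. Hmga1 was not analysed here.

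The insulin-like growth factor axis is where the IGF2BP proteins got their name. Of 15 measured genes 10 were higher, with 0 past the test in either direction and a median of 0.08. Igf2r, the receptor gene that clears IGF2, was at 8.94, 9.16 and 9.08 in SAP-deficient arrays, against 8.76, 8.83 and 8.79 in WT arrays. The groups were apart, as in 2.38% of genes in this direction. Its difference was 0.27 ± 0.11 with a limma adjusted p of 1.00, or 0.692 with the pairs as a block. Igf2 itself differed by 0.21 ± 0.18 and Igf1 by 0.03 ± 0.13. Of the signalling receptors, Insr was at 0.19 ± 0.28 and Igf1r at -0.06 ± 0.41. For both receptors the pairs differed far more than the genotypes, with Igf1r at 8.51 in SAP-deficient array 2 and 10.02 in SAP-deficient array 3. H19 was not analysed here.

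The list of m6A enzymes, readers and messenger RNP partners had a narrow range. Its 25 measured genes lay between -0.11 and 0.08, 14 of them higher, with 0 past the test in either direction and a median of 0.02. The methyltransferase gene Mettl3 differed by 0.03 ± 0.10. Elavl1 and Matr3, whose products are known in human cells as partners of IGF2BP proteins on bound messenger RNAs, differed by -0.01 ± 0.10 and -0.02 ± 0.06. Pabpc1, encoding the poly(A)-binding protein, was at -0.05 ± 0.04 and Ybx1, a cold-shock domain protein gene, at -0.002 ± 0.082. Ythdf2 was not analysed here.

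Marker genes of other cell types and of the cell cycle were also compared between the genotypes. Over 11 B cell genes the median was -0.16 and 0 were higher in SAP-deficient cells, with means of -0.15, -0.07 and -0.38 within pairs 1 to 3 and mean levels of 5.87 to 6.20 in SAP-deficient and 6.10 to 6.35 in WT arrays. Over 9 MHC class II genes the median was -0.26 with 1 higher, and the means were -0.05, -0.06 and -0.47 within the pairs, with mean levels of 7.05 to 7.43 in SAP-deficient and 7.25 to 7.52 in WT arrays. These list means cover a wide range of single genes. Averaged over all arrays, B cell genes ran from 4.88 for Cr2 to 10.39 for Ighm. MHC class II genes ran from 3.62 for H2-Ob to 10.04 for Cd74, and Cd4 was at 9.63. Over 11 myeloid and dendritic cell genes the median was 0.03, with mean levels of 5.44 to 5.77 in SAP-deficient and 5.52 to 5.75 in WT arrays. The 15 cell-cycle genes were all higher on average, but by -0.21, -0.06 and 0.64 within the pairs. None of these genes was called by limma. Within the same pairs 1 to 3, Igf2bp3 (1422610_s_at) was higher by 0.72, 0.35 and 0.59. The part of the marker and cell-cycle genes in the Igf2bp3 difference was not tested.

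**Figure D4:**
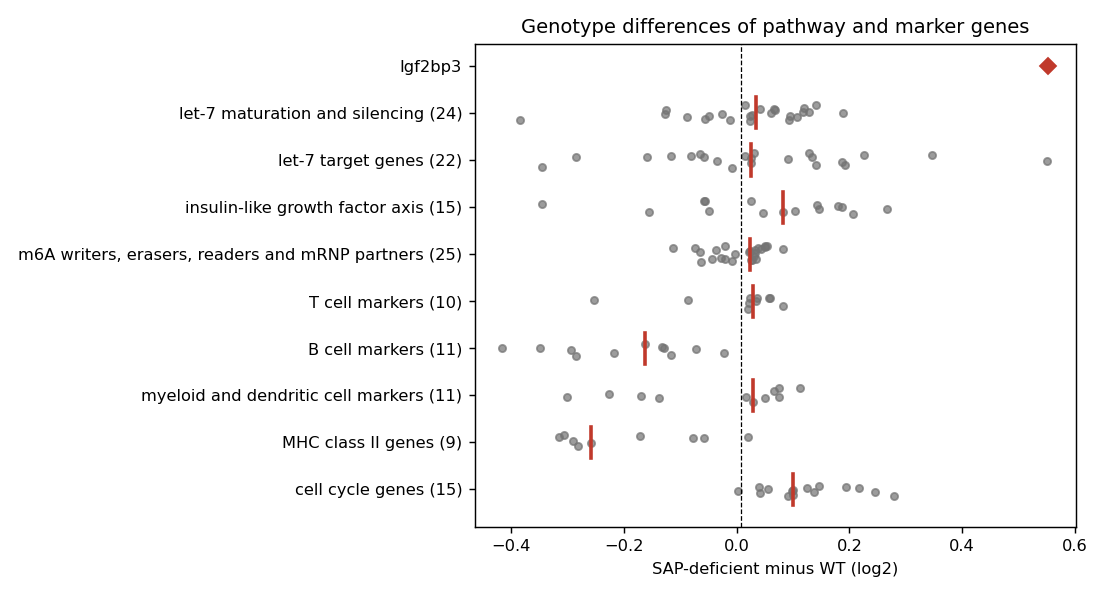
SAP-deficient minus WT difference (log2, horizontal axis) of each measured gene of the pathway and marker lists (grey points, number of genes in brackets), with red bars for the list medians, a dashed line for the median of all genes (0.01) and a red diamond for Igf2bp3 (0.55). Points are spread vertically within a list for legibility; B cell and MHC class II genes lie mostly below 0.

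The genes whose pattern lay closest to that of Igf2bp3 (1422610_s_at) were sought among the 9096 other genes at or above the median brightness, by the root mean square difference between mean-centred log2 values over the 6 arrays. In order they were Gstt1 (0.15), encoding a glutathione transferase, Cdc42ep4 (0.15), a CDC42 effector gene, Akr1c18 (0.16), encoding the progesterone-reducing enzyme, Smco4 (0.17) and Lrp8 (0.17), an apolipoprotein E receptor gene. The median of these genes lay at 0.33. Their own differences were 0.27, 0.26, 0.39, 0.37 and 0.34, all smaller than that of Igf2bp3. Of the 5, only Akr1c18 and Lrp8 had groups that did not overlap, an order that 2.38% of all genes showed in this direction. Because likeness to Igf2bp3 chose these genes, neither their direction nor the separation of their groups is a separate result. Akr1c18 was at 9.68, 9.70 and 9.61 in SAP-deficient arrays, against 9.18, 9.37 and 9.26 in WT arrays.

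**Figure D5:**
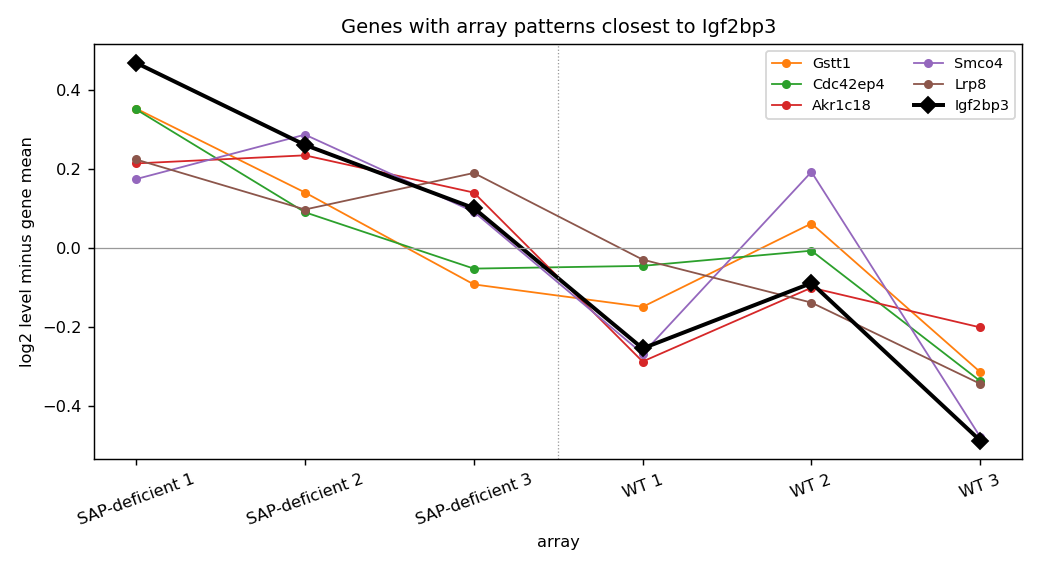
Log2 level minus the gene's mean over 6 arrays (vertical axis) in SAP-deficient arrays 1 to 3 (left) and WT arrays 1 to 3 (right) for Igf2bp3 (black) and the 5 genes closest to it (colours). Lines only help to follow a gene; WT array 3 is the lowest array for all but Akr1c18, whose lowest is WT array 1.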

How the data were processed

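Total RNA (500 ng per array) of 3 SAP-deficient and 3 WT samples was labelled and hybridised, per the labels' protocols. The deposited values are log2 expression levels that the authors made with Affymetrix Expression Console and RMA, per the submitters' processing notes; their versions and any genome build are not given in the sources used. RMA corrects background, equalises the arrays' distributions and summarises probes, and it compresses differences of dim probe sets. Array medians were 5.73 to 5.76, and the number of arrays limits the precision.

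From 45101 probe sets, 64 controls were left out. The platform annotation gave 1 gene for 34945 probe sets, several for 932 and none for 9160; RefSeq symbols matched 34741. The brightest single-gene probe set, by its mean over arrays, stands for a gene. SAP-deficient minus WT differences were fitted by limma (version 3.58.1, R 4.3.3; intensity trend) on genotype over all 45037 probe sets, with Benjamini-Hochberg adjustment over 18193 genes or over probe sets. The fit was tested on simulated data with independent noise. These held no differences between pairs, so that test does not cover the pair differences of these arrays. Pairs of arrays came from their correlation over the 44679 probe sets outside the members and lists; after subtraction of genotype means, arrays correlated at 0.52, 0.73 and 0.60 within pairs 1 to 3, and the other SAP-deficient and WT arrays at -0.10 or less. Members and gene lists were chosen with earlier results of these data known. The genes named are Sh2d1a, the members, a fixed choice from each pathway list, any called list gene and the 5 genes closest in pattern to Igf2bp3. Ago4, Il13, Eomes, Irs2, Xist and Eif2s3y were named after their values were seen. Alternatives were other variance models, a filter, normalizations, array weights, other probe sets per gene, each array left out and the pairs as a block.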

Additional observations from a re-analysis of the deposited data

How the results depend on the processing

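The Igf2bp3 difference of 0.55 (log2) stayed above 0 in all alternatives run, including array weights, centring on array medians, a second quantile normalization and 0.45 to 0.65 when each array was left out in turn. It moved by more than the SD between replicates to 0.055 when _x_at and _s_at probe sets were left out, which leaves 1433731_at to stand for the gene, and to 0.35 within pair 2. Using each other probe set in turn was chosen after seeing the data, and 1433731_at again gave 0.055. Igf2bp1, Lin28a and Lin28b remained below 0 in the alternatives over several arrays (-0.47 to -0.18, -0.24 to -0.05 and -0.16 to -0.05 with each array left out), while Lin28b was at -0.21 within pair 1 and 0.10 within pair 2. The replicate block of matched pairs leaves each difference as it is and called 1 gene and 1 probe set, against 0 and 0 without it. Limma also called 1 gene with robust variance, without _x_at and _s_at probe sets, and, among single arrays left out (0 to 1 gene, 0 probe sets), without WT replicate 2; 0 pathway genes were called in all of these. In the block fit 1110 genes had an unadjusted p under 0.05, against 239 on genotype alone. With 3 arrays a group and no stated separate cultures, dim probe sets such as those of Lin28a and Lin28b set only a weak limit on a difference. No alternative was possible for Igf2bp2, which was not analysed here.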
